A study of Mus musculus with 12 samples.

Results

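The mouse mitochondrial genome is a small circle that encodes 13 subunits of the respiratory chain, 2 ribosomal RNAs and 22 transfer RNAs. All 37 genes were present among the 41743 genes of a hippocampal RNA-seq table and were taken by their symbol, which begins with mt-, and none was left out or added for its value. Whole hippocampi came from male C57Bl/6 mice aged 12 weeks. For 2 weeks, from Monday to Friday, the toxicant group had received daily subcutaneous injections of 2.5 mg/kg pyridostigmine bromide (a reversible cholinesterase inhibitor), 12.5 mg/kg chlorpyrifos (an organophosphate insecticide) and 7.5 mg/kg DEET (an insect repellent), a mixture modelling exposures of the Gulf War, and the control group had received vehicle. Of 12 deposited libraries, 6 per group, the columns of 2 controls, numbers 4 and 5, were the same throughout and were counted as 1 sample (control 4-5), which left 5 control and 6 toxicant libraries. The chemicals were given only as a mixture, so the effect of 1 of them cannot be told apart from that of the others.

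Mitochondrial DNA is transcribed from both strands as long precursors that span many genes. The tRNAs, which sit between most of the protein and rRNA genes, are cut out of these precursors, and this releases the mRNAs and rRNAs. Afterwards the RNAs differ in stability, and mRNAs and rRNAs, though not tRNAs, can receive a short A tail. The proteins are the core of complexes I, III, IV and V, whose remaining subunits come from nuclear genes, and neurons of the hippocampus depend on these complexes for the ATP that restores ion gradients after firing. The libraries were made from RNA selected on oligo d(T) beads, so an RNA is counted only as far as its tail is caught.

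Some mitochondrial mRNAs share bases, which bears on how a read is given to a gene. Positions refer to GRCm38 (GENCODE M21, matched on Ensembl ID), with the plus strand as written. The 4 stretches printed here belong to the genes the results turn on. In the first, the capitals are the 43 bases shared by mt-Atp8 (ENSMUSG00000064356, chrM:7766-7969) and mt-Atp6 (ENSMUSG00000064357, chrM:7927-8607). In the second they are the 68 bases of the glycine tRNA gene mt-Tg, which lies with no gap between mt-Co3 (ENSMUSG00000064358, chrM:8607-9390) and mt-Nd3 (ENSMUSG00000064360, chrM:9459-9806). In the third they are the 7 bases shared by mt-Nd4l (ENSMUSG00000065947, chrM:9877-10173) and mt-Nd4 (ENSMUSG00000064363, chrM:10167-11544). In the fourth they are the 14 bases where mt-Nd5 (ENSMUSG00000064367, chrM:11742-13565, plus strand) and mt-Nd6 (ENSMUSG00000064368, chrM:13552-14070, minus strand) overlap on opposite strands.
mt-Atp8/mt-Atp6 overlap, chrM:7897-7999: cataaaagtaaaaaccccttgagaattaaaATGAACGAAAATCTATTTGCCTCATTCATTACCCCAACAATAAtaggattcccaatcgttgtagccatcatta
mt-Co3/mt-Tg/mt-Nd3 junction, chrM:9361-9488: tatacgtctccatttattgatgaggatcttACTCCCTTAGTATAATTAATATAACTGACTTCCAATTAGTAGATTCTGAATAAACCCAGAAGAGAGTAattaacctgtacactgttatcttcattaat
mt-Nd4l/mt-Nd4 overlap, chrM:10137-10203: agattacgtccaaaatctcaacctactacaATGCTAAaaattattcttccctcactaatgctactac
mt-Nd5/mt-Nd6 overlap, chrM:13522-13595: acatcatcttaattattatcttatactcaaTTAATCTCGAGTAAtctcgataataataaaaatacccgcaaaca
The first stretch holds the start of the mt-Atp6 reading frame at its first 3 capitals and the stop of mt-Atp8 at its last 3, in different frames of 1 RNA. In the second, the base before the capitals is the lone T that ends mt-Co3. The reading frames of mt-Co3, mt-Nd4 and mt-Cytb end in such a T in the annotation, and the A tail completes the stop codon.

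Levels are given as RPKM, reads scaled to gene length and depth. The protein-coding genes were among the most abundant RNAs of the tissue and took 22.1% ± 5.20 (SD, n = 5) of the summed RPKM of control and 20.7% ± 1.66 (SD, n = 6) of that of toxicant libraries. The control libraries ranged from 17.9% to 29.8% and the toxicant libraries from 17.6% to 22.1%, inside the control range but for 1 library just under it. The difference of the means was -1.32 percentage points with all libraries and 0.607 without control 2, so that library set its direction. As a share of all reads the protein-coding genes took 5.17% ± 1.05 (SD, n = 5) and 4.75% ± 0.382 (SD, n = 6). Both rRNAs together took 0.958% ± 0.0760 (SD, n = 5) and 0.943% ± 0.0993 (SD, n = 6) of all reads.

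By mean level, the mRNAs of complexes IV and V stood above those of complexes III and I. Over the 11 libraries, mt-Co1, the catalytic subunit of cytochrome c oxidase (complex IV), had the highest mean level at 8379 RPKM, 6.40 times that of mt-Nd6, the lowest at 1309 RPKM. Below mt-Co1 came mt-Atp6 at 7877, mt-Co3 at 7543, mt-Atp8 at 6568 and mt-Co2 at 6369 RPKM, so the 5 most abundant mRNAs were those of complexes IV and V. The mRNA of the single complex III subunit, mt-Cytb, followed at 3565 RPKM. The 7 complex I mRNAs lay beneath it, with mt-Nd1 at 3463, mt-Nd4 at 3339, mt-Nd2 at 2348, mt-Nd4l at 2204, mt-Nd3 at 1945, mt-Nd5 at 1670 and mt-Nd6 at 1309 RPKM. Neighbours in this order differed by less than the larger of their SDs over the 11 libraries, except at the steps from mt-Co2 to mt-Cytb, from mt-Nd4 to mt-Nd2 and from mt-Nd5 to mt-Nd6.

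**Figure D1:**
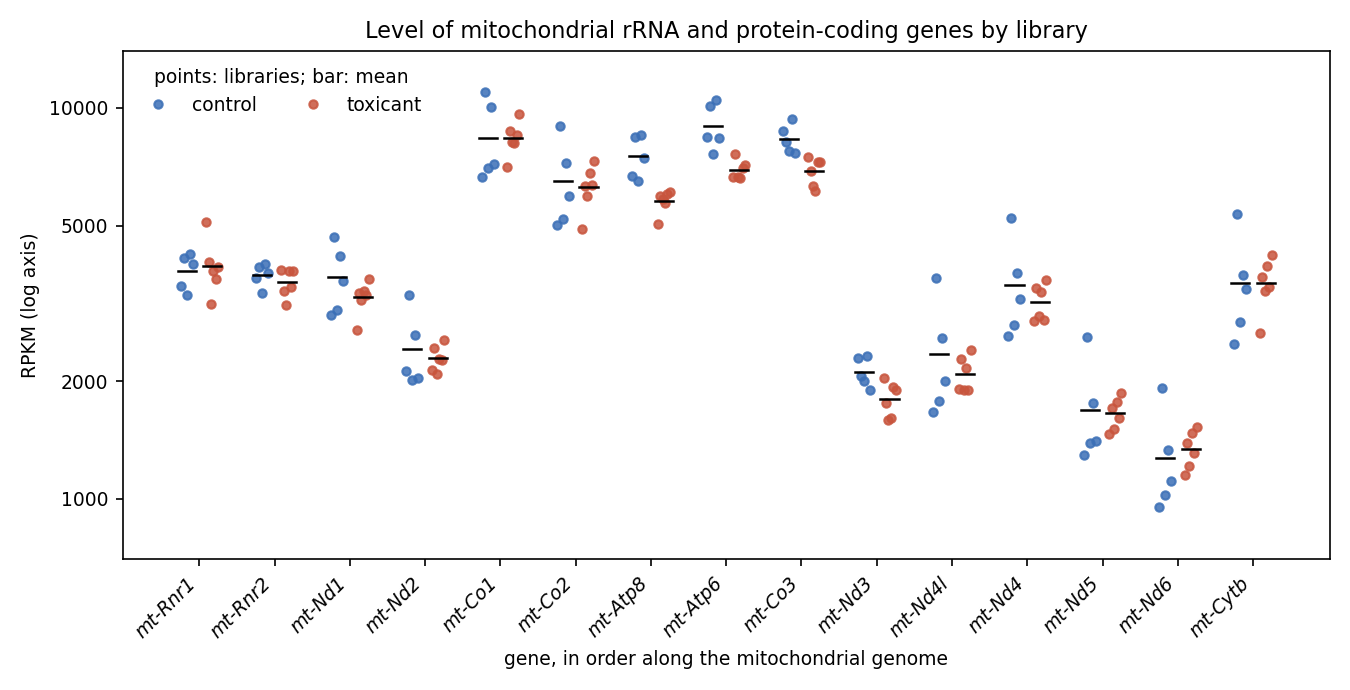
RPKM on a log axis for the 2 mitochondrial rRNA genes and 13 protein-coding genes in genome order; each point is 1 library (5 control, 6 toxicant) and each bar a group mean. The groups do not overlap in mt-Atp8 and mt-Co3, and in the genes outside mt-Atp8 to mt-Nd3 the control points are often spread wider than the toxicant points.

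Toxicant and control were compared gene by gene on log2(RPKM + 0.5) with limma over 13493 genes, with p-values adjusted for all of them (Benjamini-Hochberg). Of the 37 mitochondrial genes, 23 passed the filter on low values, among them all 13 protein-coding genes, both rRNAs and 8 tRNAs. No mitochondrial gene reached an adjusted p of 0.05, and over all genes tested the share that did was 0% (2737 genes at an unadjusted p under 0.05). A rank-sum test and limma's voom on recovered reads also called 0 mitochondrial genes. Without adjustment, 3 of the 13 protein-coding genes (mt-Atp8, mt-Atp6 and mt-Co3) were lower at p under 0.05, beside 17% of all genes tested, and 0 were higher, beside 3.33%. In 2 of the 13, mt-Atp8 and mt-Co3, every toxicant library lay below every control library, which held for 2.03% of all genes tested. The reverse, found in 0.111% of all genes, held for 0 of the 13. The median log2 change was -0.11 over the protein-coding genes and -0.11 over all genes tested, so these counts are read against a table in which 70% of genes had a log2 change below 0. The likeness of the medians depends on single libraries. Without control 2 they were 0.06 over the protein-coding genes and -0.16 over all genes. Leaving out control 1 gave -0.20 and -0.09, and leaving out control 3 gave -0.18 and -0.09, the other way round. After adjustment for the reads on genes, described further on, the protein-coding median was -0.30. Where the whole table was centred by median-ratio scaling, the median of all genes moved to -0.02 and that of the protein-coding genes to 0.01.

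Among the protein-coding genes, the most negative log2 changes were those of complex V. mt-Atp8 encodes a small membrane subunit of ATP synthase. In the control libraries (1, 2, 3, 4-5 and 6) it stood at 6698, 8429, 6509, 8517 and 7462 RPKM. In toxicant libraries 1 to 6 it stood at 5043, 5945, 5830.4, 5703, 6024 and 6087 RPKM. All 6 toxicant libraries were thus below the lowest control, and they lay close together but for toxicant 1. The means were 7523 ± 938 RPKM (SD, n = 5) and 5772 ± 383 RPKM (SD, n = 6), a log2 change of -0.38 ± 0.12 (SE) with an unadjusted limma p of 0.00831 and an adjusted p of 0.207. An exact two-sided rank-sum test over libraries gave 0.00433 without adjustment, the smallest p that 5 against 6 libraries allow. With median-ratio scaling the log2 change was -0.26.

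mt-Atp6 encodes the ATP synthase subunit that forms the proton path next to the rotor. Its control libraries held 8414, 10122, 7600.5, 10445 and 8349.8 RPKM. The toxicant libraries ran from 6624 to 7612 RPKM with a median of 6846 RPKM. Only toxicant 2, the highest of its group, reached the control range, and the other 5 were below the lowest control. The means of 8986 ± 1232 RPKM (SD, n = 5) and 6953 ± 388 RPKM (SD, n = 6) gave a log2 change of -0.36 ± 0.12 (SE) with an adjusted limma p of 0.215. The change was -0.20 after quantile normalization. The log2 changes of both complex V members were close to each other, and the ratio of mt-Atp6 to mt-Atp8 was the same in both groups to within its spread, at a log2 ratio of 0.25 ± 0.06 (SD, n = 5) and 0.27 ± 0.09 (SD, n = 6).

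The 3 complex IV mRNAs had log2 changes of -0.27, 0.02 and -0.02, none past the threshold. mt-Co3, a core subunit without metal centres, begins at the last base of mt-Atp6. Its control values are listed although the rule for naming did not ask for them, after they had been seen. The controls held 8714, 8193, 7738, 9338 and 7652 RPKM, and the toxicant libraries ran from 6111 to 7491 RPKM with a median of 7080.5 RPKM. The groups did not overlap. The log2 change was -0.27 ± 0.12 (SE), with an unadjusted limma p of 0.0346 and an adjusted p of 0.232. It was -0.16 with median-ratio scaling and -0.08 with quantile normalization, so its size depended on how libraries were put on 1 scale.

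mt-Co1, which carries the site of oxygen reduction, held 6638, 10981, 7021, 10059.5 and 7202 RPKM in the controls. In toxicant libraries it ran from 7068 to 9666 RPKM with a median of 8347 RPKM. The toxicant values lay wholly inside the control range, since control 2 and control 4-5 were high and the other 3 controls low. The log2 change was 0.02 ± 0.16 (SE, limma adjusted p = 0.918). mt-Co2, which receives the electrons from cytochrome c, had means of 6481 ± 1647 RPKM (SD, n = 5) and 6276 ± 822 RPKM (SD, n = 6) and a log2 change of -0.02 ± 0.17 (SE, adjusted p = 0.929). The sign for mt-Co2 was positive, at 0.09, with median-ratio scaling.

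Complex I, which takes electrons from NADH, has 7 mitochondrial subunits, and 5 of their mRNAs had a log2 change below 0. The most negative was mt-Nd3, at -0.23 ± 0.11 (SE, limma adjusted p = 0.250). Its controls held 2290.1, 2065, 2005, 2320.0 and 1894 RPKM, and its toxicant libraries ran from 1589 to 2036 RPKM with a median of 1827 RPKM; these too were printed after the values had been seen. Of the toxicant libraries 3 lay below the lowest control, so the groups overlapped. The change was -0.12 with median-ratio scaling and -0.09 with limma's array weights.

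mt-Nd4l and mt-Nd4, membrane subunits read from 1 shared RNA, varied together. mt-Nd4l held 1669, 3677, 1784, 2573 and 2006 RPKM in the controls and ran from 1896 to 2399.9 RPKM, with a median of 2032 RPKM, in the toxicant libraries. mt-Nd4 held 2604, 5219.8, 2777, 3769.9 and 3243 RPKM in the controls and ran from 2851 to 3637 RPKM, with a median of 3152 RPKM, in the toxicant libraries. In both, control 2 was far above every other library and no toxicant library left the control range. Both log2 changes rounded to -0.11, with SEs of 0.19 and 0.17 and adjusted limma p of 0.686 and 0.669. They were 0.00 and 0.01 with median-ratio scaling. The log2 ratio of mt-Nd4 to mt-Nd4l was 0.61 in both groups, with an SD of 0.08 over 5 controls and 0.02 over 6 toxicant libraries.

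The other complex I mRNAs had no log2 change past the threshold. mt-Nd1 had means of 3687 ± 729 RPKM (SD, n = 5) and 3278 ± 314 RPKM (SD, n = 6) and a log2 change of -0.15 ± 0.14 (SE, limma adjusted p = 0.458). mt-Nd2 had means of 2422 ± 560 RPKM (SD, n = 5) and 2287 ± 176 RPKM (SD, n = 6), with a log2 change of -0.06 ± 0.14 (SE, adjusted p = 0.777) that was 0.05 under median-ratio scaling. mt-Nd5 had means of 1689.7 ± 538 RPKM (SD, n = 5) and 1654 ± 154 RPKM (SD, n = 6) and a log2 change of 0.01 ± 0.17 (SE, adjusted p = 0.958).

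mt-Nd6 is the only protein gene encoded on the other strand, and it had the most positive log2 change of the 13, 0.12 ± 0.17 (SE, limma adjusted p = 0.611). It held 954, 1921, 1025, 1334 and 1111 RPKM in the controls and ran from 1149 to 1525 RPKM, with a median of 1348 RPKM, in the toxicant libraries. All toxicant values again lay within the control range, whose upper end was control 2. Set against mt-Nd5, with which it overlaps, the groups parted further. The log2 ratio of mt-Nd6 to mt-Nd5 was -0.44, -0.44, -0.44, -0.40 and -0.34 in the controls and ran from -0.35 to -0.26 in the toxicant libraries, so that 5 of 6 toxicant libraries were above the highest control. Its means were -0.41 ± 0.04 (SD, n = 5) and -0.30 ± 0.03 (SD, n = 6). This ratio was 1 of 11 looked at and was not tested. The library kit's use of strand is not stated, so reads from mt-Nd6 and from precursor RNA of the opposite strand cannot be told apart.

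mt-Cytb, the cytochrome b of complex III, had means of 3569 ± 1112 RPKM (SD, n = 5) and 3561 ± 535 RPKM (SD, n = 6). Its log2 change of 0.03 ± 0.19 (SE, limma adjusted p = 0.903) came with the largest SE of the 13 protein-coding genes. Its control libraries reached from 2488 RPKM in control 1 to 5354 RPKM in control 2 and enclosed every toxicant value.

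The rRNAs of the mitochondrial ribosome showed no difference past the threshold. mt-Rnr1, the 12S rRNA of the small subunit, held 3501, 4123, 3319, 4217 and 3989 RPKM in the controls and ran from 3151 to 5104 RPKM, with a median of 3875 RPKM, in the toxicant libraries. Toxicant 1 was the highest and toxicant 3 the lowest of all 11. The log2 change was 0.03 ± 0.14 (SE, limma adjusted p = 0.859). mt-Rnr2, the 16S rRNA of the large subunit, held 3679, 3927, 3353, 3977 and 3778 RPKM in the controls and ran from 3125 to 3838 RPKM, with a median of 3646 RPKM, in the toxicant libraries. Only toxicant 3 left the control range, downward. The log2 change was -0.07 ± 0.11 (SE, adjusted p = 0.665), and 0.05 with median-ratio scaling. Both rRNAs come from the start of the same strand as most mRNAs, and their spread over controls was at the low end of that of the mRNAs. The coefficient of variation over control libraries was 10.4% for mt-Rnr1 and 6.63% for mt-Rnr2, against 8.48% (mt-Co3) to 35.2% (mt-Nd4l) over the mRNAs.

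**Figure D2:**
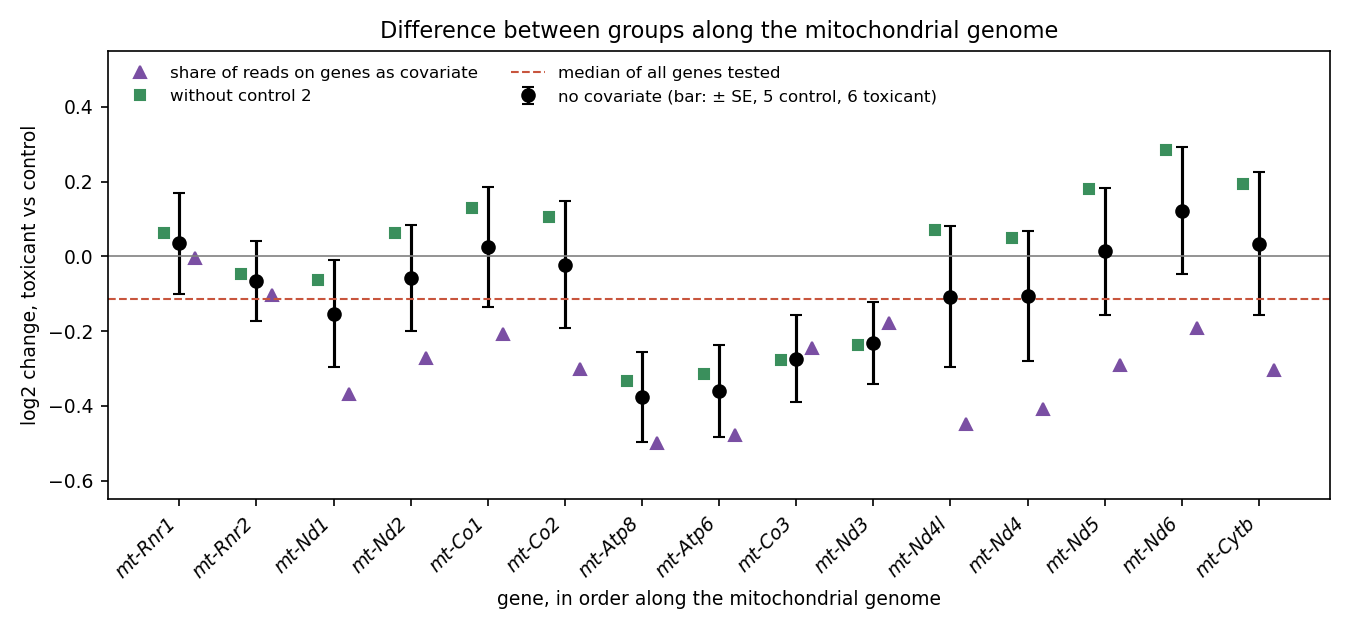
Log2 change of toxicant against control for each rRNA and protein-coding gene in genome order, with its SE (black), without control 2 (green squares) and adjusted for each library's share of reads on genes (purple triangles); the dashed line is the median of all genes tested. mt-Atp8, mt-Atp6, mt-Co3 and mt-Nd3 stand between -0.38 and -0.23 in the fit without covariate, and the triangles of all 13 protein-coding genes lie below 0.

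The 4 protein-coding genes with the most negative log2 changes, mt-Atp8, mt-Atp6, mt-Co3 and mt-Nd3, are neighbours on the genome, with mt-Tg as the only gene between them. This group was picked after the values were seen, so it carries no test. Their summed share of the 13-gene RPKM total was 50.3%, 38.1%, 46.8%, 45.1% and 45.8% in the controls and ran from 37.6% to 44.1% in the toxicant libraries. The exception among controls was control 2, which lay within the toxicant values. The shares of mt-Atp8 (12.6% and 10.8%) and mt-Atp6 (15.0% and 13.03%) were lower in the toxicant group, and those of mt-Co1 (13.8% and 15.6%) and mt-Nd6 (2.07% and 2.51%) were higher, as shares of 1 total must move against each other.

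Ratios between these genes and those beside them were compared as descriptions, without a test. The log2 ratio of mt-Nd3 to mt-Co3 was -1.98 ± 0.04 (SD, n = 5) for control and -1.94 ± 0.04 (SD, n = 6) for toxicant. The log2 ratio of mt-Atp8 to mt-Co2, the protein gene just before it, was 0.24 ± 0.20 (SD, n = 5) for control and -0.11 ± 0.12 (SD, n = 6) for toxicant; 2 of the 6 toxicant values were under every control value. For mt-Atp6 against mt-Co2 it was 0.50 ± 0.21 (SD, n = 5) for control and 0.16 ± 0.18 (SD, n = 6) for toxicant. In that ratio 4 of 6 toxicant libraries lay below the lowest control, and for mt-Co3 against mt-Co2 1 of 6 did; the lowest control in each of these 3 ratios was control 2. At the end of the stretch, the log2 ratio of mt-Nd4l to mt-Nd3 was 0.09 ± 0.48 (SD, n = 5) and 0.21 ± 0.22 (SD, n = 6), a difference far within the control spread.

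**Figure D3:**
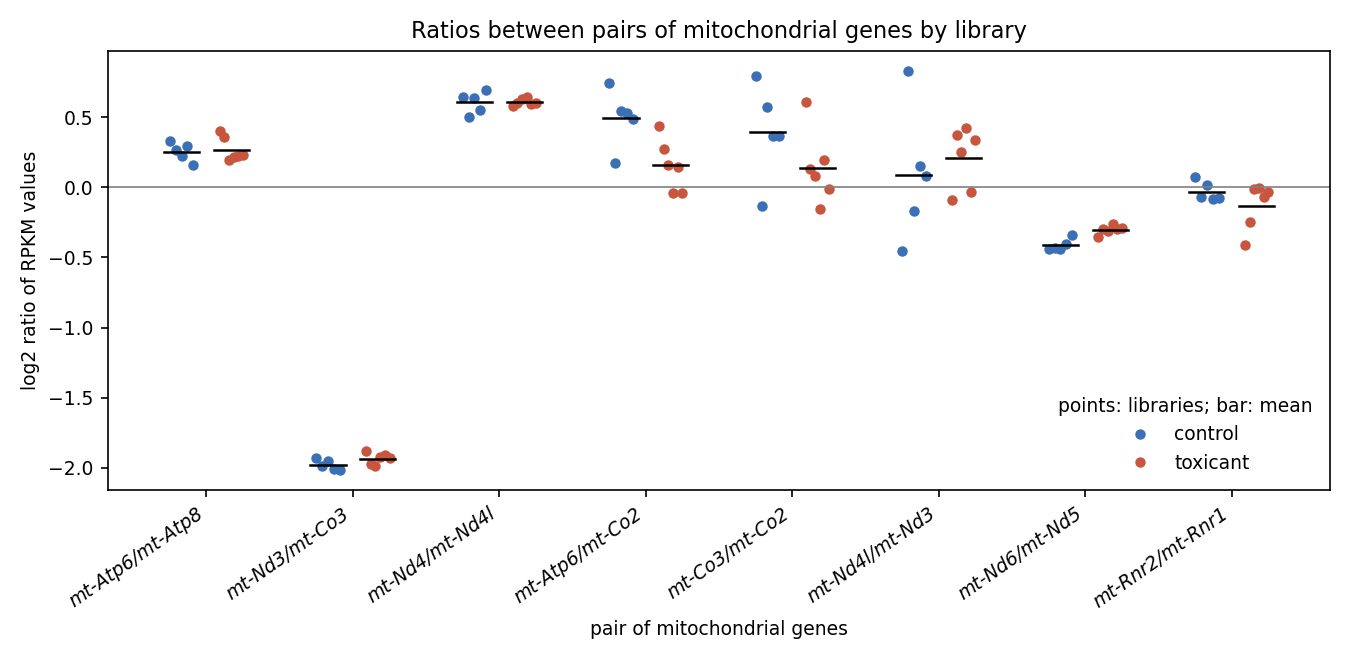
Log2 ratio of RPKM values for 8 pairs of mitochondrial genes; each point is 1 library (5 control, 6 toxicant) and each bar a group mean. mt-Nd3/mt-Co3 and mt-Nd6/mt-Nd5 vary little within a group, mt-Atp6/mt-Co2 is 0.50 in control and 0.16 in toxicant on average, and mt-Nd4l/mt-Nd3 spreads most in the controls.

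Control 2 stood apart from the other controls in most of these genes. It was the highest of all 11 libraries in 9 of the 13 protein-coding genes, the exceptions being mt-Atp8, mt-Atp6, mt-Co3 and mt-Nd3, in which control 4-5 was highest. Its excess over the median of the other controls was 0.96 on the log2 scale in mt-Nd4l, 0.89 in mt-Nd5, 0.85 in mt-Nd6, 0.79 in mt-Nd4 and 0.77 in mt-Cytb. It was 0.69 in mt-Co2, 0.68 in mt-Nd2, 0.63 in mt-Co1 and 0.49 in mt-Nd1, but 0.27 in mt-Atp6, 0.25 in mt-Atp8, -0.01 in mt-Co3, -0.06 in mt-Nd3, 0.14 in mt-Rnr1 and 0.07 in mt-Rnr2. Control 1 was the lowest control in 8 of the 13 genes, and toxicant 1 the lowest toxicant library in 8. Over the controls, the 5 genes from mt-Nd4l to mt-Cytb had the widest spread. Over the toxicant libraries mt-Rnr1 had the widest, with a coefficient of variation of 16.3%.

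**Figure D4:**
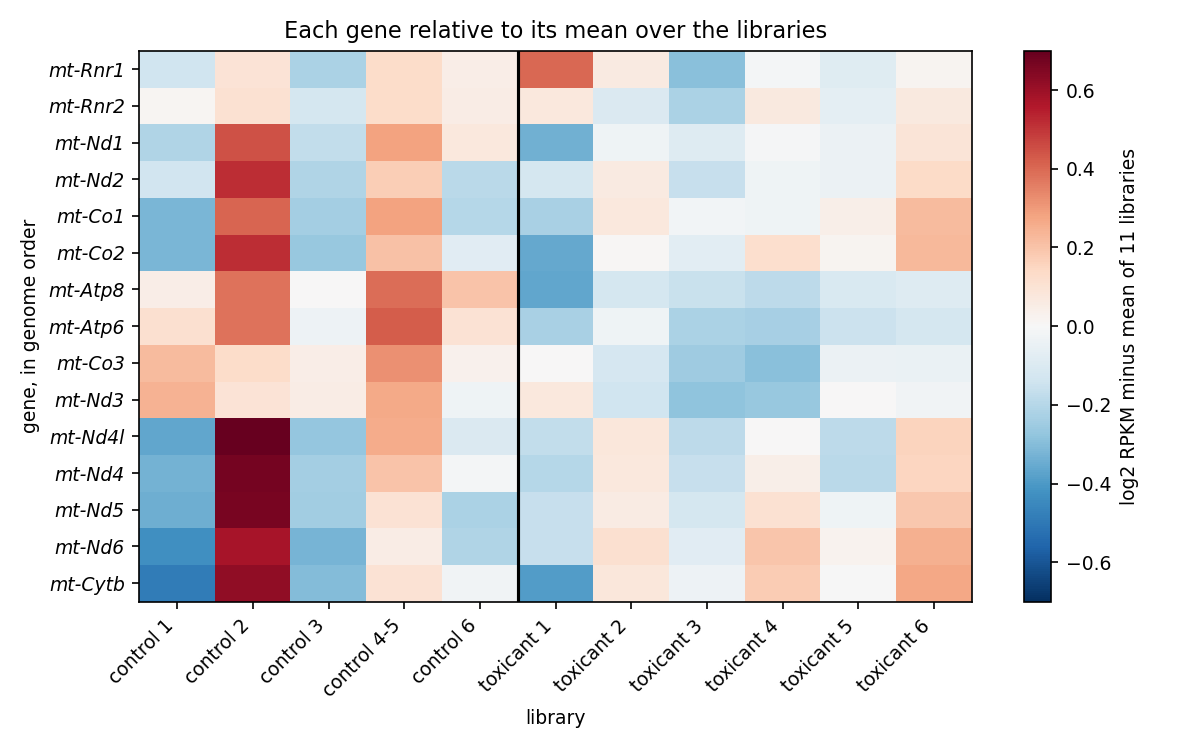
Log2 RPKM of each rRNA and protein-coding gene in each library, as the difference from the gene's mean over 11 libraries (red higher, blue lower; controls left of the line, toxicant libraries right). Control 2 is dark red from mt-Nd4l to mt-Cytb and pale in both rRNAs, mt-Co3 and mt-Nd3.

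Without control 2, 36.6% of 13468 genes tested passed an adjusted limma p of 0.05 (28.1% in the lower direction), and 0 of the mitochondrial genes did. The nearest were mt-Atp8 with a log2 change of -0.33 and an adjusted p of 0.0507, mt-Atp6 with -0.32 and 0.0624, mt-Nd6 with 0.28 and 0.0806, and mt-Co3 with -0.28 and 0.0851. In that fit mt-Nd6, mt-Cytb (0.19) and mt-Nd5 (0.18) were on the higher side, while mt-Nd3 was at -0.24.

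A measure of the libraries themselves moved with the levels among the controls. Reads lying on annotated genes made up 85.4% ± 4.58 (SD, n = 5) of control reads and 80.8% ± 2.68 (SD, n = 6) of toxicant reads. Among the controls it was lowest in control 2 (78.4%) and control 4-5 (83.1%), the controls with the most mitochondrial mRNA, and highest in control 1 (89.5%) and control 3 (88.4%), those with the least. With this share as a covariate the log2 change was -0.50 ± 0.08 (SE) for mt-Atp8 and -0.48 ± 0.09 (SE) for mt-Atp6, each with an adjusted limma p of 0.141. All 13 protein-coding genes were then below 0, and mt-Nd4l (-0.45), mt-Nd4 (-0.41) and mt-Nd1 (-0.37) were lower than mt-Co3 (-0.24) and mt-Nd3 (-0.18). The low values of mt-Atp8 and mt-Atp6 were thus present with and without the covariate, whereas which other genes lay near them differed between the fits. The rRNAs stayed near 0 with it, at -0.00 for mt-Rnr1 and -0.10 for mt-Rnr2. The part of this library measure in the results was not tested further.

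Copies of mitochondrial DNA in the nuclear genome could take some of the reads. Exact stretches of 75 bases, the read length, were compared between the mitochondrial genes and annotated transcripts. Of the stretches in mt-Co3 99.9% were also in an annotated nuclear pseudogene, 99.5% in mt-Co2 and in mt-Atp6, 98.7% in mt-Nd4l, 97.8% in mt-Nd3, 61.5% in mt-Nd4, 39.8% in mt-Co1, 5.71% in mt-Nd2 and 1.66% in mt-Nd5. The remaining protein-coding and rRNA genes, mt-Atp8 among them, shared 0% with annotated transcripts. Most of these copies lie side by side on chromosome 1, from Gm28439 (chr1:24611535-24612410) to Gm29216 (chr1:24615706-24616197), and their expression was not analysed here. Between Gm10925 (chr1:24613974-24614651), the copy of mt-Atp6, and Gm28661 (chr1:24614885-24615565), that of mt-Co2, bases were compared only where a transcript is annotated. mt-Atp8 starts between mt-Co2 and mt-Atp6, so its 0% does not show that it has no nuclear copy. Beside these shares, the log2 changes of the nearly wholly copied genes were -0.36 in mt-Atp6, -0.27 in mt-Co3, -0.23 in mt-Nd3, -0.11 in mt-Nd4l and -0.02 in mt-Co2. In mt-Atp8 the log2 change was -0.38. The part of the copies in these values was not tested. Levels of the copied genes are uncertain as far as the authors' counting could split reads.

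The tRNAs were measured at a few reads only. They are 59 to 75 bases long, no longer than 1 read, and end in CCA rather than an A tail. Together they had 20 to 56 reads per library, no tRNA exceeded 12 reads in a library, 16 of 22 had at most 3 reads in every library, and mt-Tr had 0 reads in all 11. A count of 0 in a library allows up to 3 reads, which is 1.15 to 2.37 RPKM depending on library and tRNA, so levels under that are not distinguishable from 0 by counting error alone. The 8 that passed the filter were mt-Tv, mt-Tl1, mt-Tm, mt-Tn, mt-Ts1, mt-Tg, mt-Te and mt-Tp, with a median log2 change of 0.09 and none at an unadjusted limma p under 0.05. Their log2 changes were -0.04 for mt-Tv, 0.23 for mt-Tl1, 0.64 for mt-Tm, 0.22 for mt-Tn, 0.37 for mt-Ts1, -0.36 for mt-Tg, -0.42 for mt-Te and -0.57 for mt-Tp.

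The most abundant, mt-Ts1 (a serine tRNA), held 2.05, 2.36, 2.90, 2.48 and 4.99 RPKM in the controls and ran from 2.34 to 5.96 RPKM, with a median of 3.84 RPKM, in the toxicant libraries. That is 4 to 12 reads in any library, and the groups overlapped. The tRNA with the smallest p was mt-Tp (the proline tRNA), with 1.05, 0.973, 1.79, 1.02 and 0.857 RPKM in the controls and 0 to 1.58 RPKM, with a median of 0.608 RPKM, in the toxicant libraries. Its p was 0.0597 unadjusted and 0.252 adjusted (limma), and it had at most 3 reads in every library, so no difference was detectable at this depth. mt-Tg, between mt-Co3 and mt-Nd3 in the sequence shown, had 25 reads in all 11 libraries, whereas mt-Co3 had 1762980.

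The nuclear genes that act on mitochondrial RNA were taken from lists chosen with earlier results of these data known. Their counts stand beside those of all genes tested, of which 70% had a log2 change below 0, 17% were lower at an unadjusted p under 0.05 and 3.33% higher. Among 15 tested genes of mitochondrial DNA transcription and maintenance, 9 were higher and 6 lower, 0 had an unadjusted limma p under 0.05 in either direction, and the median log2 change was 0.05. Polrmt, the mitochondrial RNA polymerase, had means of 5.30 ± 0.847 RPKM (SD, n = 5) and 4.80 ± 0.260 RPKM (SD, n = 6) and a log2 change of -0.12 ± 0.09 (SE, adjusted p = 0.398). Tfam, which packages the DNA and starts transcription, was at 0.02 ± 0.08 (SE, adjusted p = 0.886). The transcription factor Tfb2m (0.26) and the termination-factor relative Mterf2 (0.30) had the smallest p of that list, both at an adjusted p above 0.27.

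Of 22 genes for processing and stability of mitochondrial RNA, 10 were higher and 12 lower, and the only one with an unadjusted p under 0.05 was Supv3l1, the helicase of the RNA-degrading complex, at -0.23 ± 0.08 (SE, limma adjusted p = 0.217). Next by p came Tbrg4, a FASTK-family protein, at -0.25. Lrpprc and Slirp, which together protect mitochondrial mRNAs, were at 0.02 ± 0.09 (SE) and 0.03 ± 0.10 (SE). Of 19 mitochondrial aminoacyl-tRNA synthetases, 6 were higher and 13 lower. Aars2 for alanine was at -0.25 ± 0.09 (SE) and Lars2 for leucine at 0.50 ± 0.18 (SE), with Lars2 means of 216 ± 51.1 RPKM (SD, n = 5) and 304 ± 55.8 RPKM (SD, n = 6) and 5 of 6 toxicant libraries above the highest control. The adjusted p of Lars2 was 0.219. Over all libraries it averaged 264 RPKM, far above the next of its list, Gars at 24.0 RPKM, and the reason was not tested.

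Of 11 regulators of mitochondrial biogenesis, 5 were higher and 6 lower with a median log2 change of -0.00. Ppargc1a, the coactivator that drives biogenesis, was at 0.25 ± 0.11 (SE, limma adjusted p = 0.245), with 4 of 6 toxicant libraries above the highest control, while its relative Pprc1 was at -0.17 and the deacetylase Sirt3 at -0.25. Of 11 tested genes of the mitochondrial stress response, 3 were higher and 8 lower. At an unadjusted limma p under 0.05, 1 was higher, the chaperone gene Hspd1 at 0.20, and 3 were lower. The transcription factor Atf5 was at -0.34 and the asparagine synthetase Asns at -0.32. None of these lists had a gene past an adjusted p of 0.05.

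In the main fit the nuclear subunits of the respiratory chain all had log2 changes below 0. This held for 36 of 36 in complex I (median -0.20), 4 of 4 in complex II (-0.24), 9 of 9 in complex III (-0.18), 12 of 12 in complex IV (-0.20) and 14 of 14 in complex V (-0.22), beside 70% of all genes and an all-gene median of -0.11. An unadjusted limma p under 0.05 in the lower direction was reached by 3, 1, 1, 1 and 3 of them, beside 17% of all genes, and an adjusted p of 0.05 by 0. The named members were Ndufv2 (-0.24) and Ndufb4 (-0.34) of complex I, Sdhb (-0.26) and Sdhc (-0.29) of complex II, and Uqcrc2 (-0.25) and Uqcrfs1 (-0.27) of complex III. In complex IV they were Cox7a2l (-0.32) and Ndufa4 (-0.19), and in complex V Atp5l (-0.31) and Atp5c1 (-0.26). Sdhb and Uqcrfs1 were at 0.03 and 0.00 once the share of reads on genes was a covariate. With quantile normalization Ndufa4 was at 0.02. Median-ratio scaling moved the all-gene median to -0.02, so the sign of subunits near 0, such as Ndufs1 (-0.02) and Ndufs4 (-0.04), may depend on the scale. Of 13 genes listed for mitochondrial mass and the outer membrane, 4 were higher and 9 lower, with log2 changes from -0.28 to 0.44. At an unadjusted limma p under 0.05, 0 were higher and 2 lower, beside 3.33% and 17% of all genes tested. Those 2 were the citrate synthase gene Cs at -0.28 and the pore gene Vdac2 at -0.24.

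The mitochondrial and nuclear subunits of a complex did not have like values throughout. In complex V the mitochondrial pair (median -0.37) was lower than each of the 14 nuclear subunits, whose lowest was Atp5l. In complex IV, mt-Co3 lay among the nuclear subunits and mt-Co1 and mt-Co2 above all of them. In complex I the mitochondrial median was -0.11, and in complex III mt-Cytb was above all 9 nuclear subunits. These are orders of fitted values, and the difference between the genomes was not tested. The orders depend on the fit, since with the share of reads as covariate mt-Cytb was at -0.30 and Uqcrfs1 at 0.00, and mt-Co1 and mt-Co2 were at -0.21 and -0.30.

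**Figure D5:**
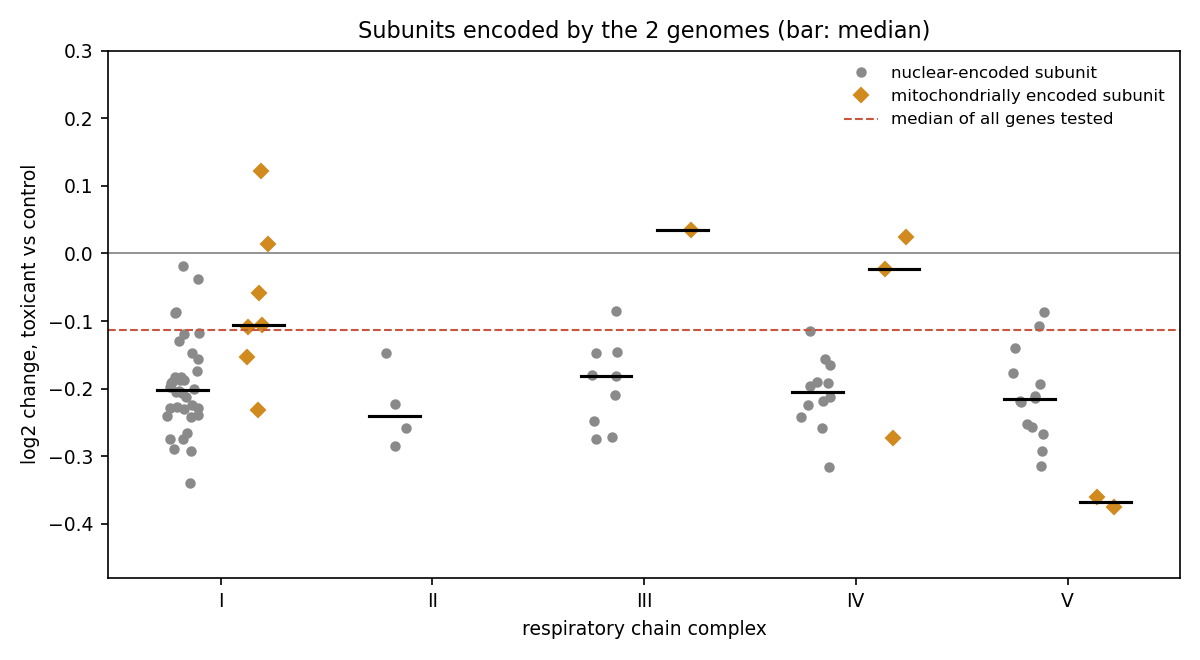
Log2 change of toxicant against control for nuclear (grey) and mitochondrial (orange) subunits of respiratory complexes I to V; each point is 1 gene, bars are medians, and the dashed line is the median of all genes tested. All 75 nuclear subunits lie below 0 in this main fit on the RPKM scale. The complex V mitochondrial pair lies below its nuclear partners, and mt-Cytb above those of complex III.

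Levels of some cell-type markers also differed between the groups, though no marker reached an adjusted limma p of 0.05. In a whole-tissue sample fewer cells of a type and less RNA per cell cannot be told apart. Summed RPKM of 8 markers of hippocampal neurons ran from 377 to 600 in control and 356 to 454 in toxicant libraries, and 0 of the 8 were at 0 in any library. The sums of 5 interneuron markers ran from 213 to 365 in control and from 238 to 315 in toxicant libraries, wholly inside the control range. The sums of 6 oligodendrocyte markers ran from 518 to 596 and from 375 to 523, of 5 astrocyte markers from 130 to 151 and from 114 to 129.8, and of 5 microglial markers from 35.7 to 45.1 and from 28.4 to 37.0. The sums of 5 endothelial markers ran from 25.67 to 29.7 in control and from 19.4 to 25.59 in toxicant libraries, just short of overlap. Those of 5 red cell markers ran from 97.1 to 143 and from 70.9 to 101.6. Taken singly, 4 of 5 endothelial and 2 of 6 oligodendrocyte markers had every toxicant library below every control. So had 1 of 5 microglial and 1 of 4 tested red cell markers. It held for 0 markers of the other types and for 2.03% of all genes tested. Choroid plexus markers, from tissue next to the hippocampus, reached from 33.5 to 3049.5 and from 27.6 to 1944, with single libraries at the top of each group. Their part in the mitochondrial values was not tested.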

How the data were processed

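Hippocampal poly(A) RNA of single mice was sequenced as 75-base single reads, per the labels' protocols. The authors deposited 1 RPKM value per gene and library; aligner, counter, build, annotation and use of strand: not given in the sources used here. Controls 4 and 5 had identical columns and were counted once. Reads were recovered as RPKM multiplied by GENCODE M21 exon length: 98.3% to 98.5% of values were whole within 0.05 reads, giving 21.5 M to 34.9 M reads per library. Genes averaging 0.5 RPKM or more were tested with limma 3.58.1 in R 4.3.3 on log2(RPKM + 0.5) (lmFit, eBayes with trend, two-sided, Benjamini-Hochberg, threshold 0.05), a scale that understates the change of low genes; the procedure was tested on simulated data. Labels give different samples per group, and p-values measure the spread between them. Sums, shares and ratios used pandas 2.3.3.

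The members, gene lists and tests were chosen with earlier results of these data known. Every protein-coding and rRNA gene and each tRNA averaging 0.5 RPKM or more was named. Values by library (for the 6 toxicant libraries mostly lowest, median and highest) were given for the gene with the highest mean and the smallest p of each class, the extreme protein-coding changes, and the same-strand overlapping pairs. Of each nuclear list the 2 genes with the smallest p were named, plus Polrmt, Tfam, Lrpprc, Slirp and Ppargc1a. Hspd1 was named after the values had been seen. Alternatives covered pseudocount, filter, scaling, variance model, library weights, replicate block, covariate, left-out libraries, 12 libraries and a rank-sum test. limma's voom on recovered reads was added after seeing the data. Nuclear copies were sought only among annotated transcripts.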

Additional observations from a re-analysis of the deposited data

Results flagged for a closer look

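Of 72 groups of library values checked for a single extreme library, 5 had one whose gap to its nearest neighbour was large for the range of the group, and chance alone flags about 1 in 20. In mt-Atp8, toxicant 1 had 5043 RPKM, below the other 5 toxicant libraries; without that library the log2 change of mt-Atp8 was -0.34 in place of -0.38. The summed share of the RPKM total on mitochondrial protein-coding genes was 17.62% in toxicant 1, the lowest of all 11 libraries. The other 3 were tRNAs at a few reads: mt-Tv with 3.743 RPKM in control 6, mt-Te with 6.389 RPKM in control 3 and mt-Tp with 1.795 RPKM in control 3.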

How the results depend on the processing

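No mitochondrial gene passed the adjusted threshold under any alternative but limma's array weights, which called 7 of them and 9553 genes (6690 lower) and gave control 6 a weight of 12.5. The count of all genes called, 0 in the main analysis (2737 at an unadjusted p under 0.05), was 1 with a pseudocount of 0.1, 9 (9 lower) with all 12 libraries and 11 (10 lower) at an adjusted p of 0.1. Leaving out 1 library gave 0 to 4932 calls (0 to 3779 lower), the highest without control 2; the cause was not tested. Replicate numbers were not taken to pair the animals. Same-numbered libraries correlated at 0.624, 0.277, -0.298, 0.323 and 0.272, and not every library correlated best with its own number. These values do not settle whether the numbers pair animals. With the replicate block, in which control 4-5 was placed with toxicant 4, 0 genes were called, and 4664 had an unadjusted limma p under 0.05. mt-Atp8, mt-Atp6, mt-Co3 and mt-Nd3 were below 0 in every alternative run. tRNAs rest on too few reads for any ranking.

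Signs turned as follows in log2 change, all in values not past the threshold in the main analysis. Median-ratio scaling gave mt-Tv 0.013, mt-Rnr2 0.046, mt-Nd2 0.054, mt-Co2 0.089, mt-Nd4l 0.0036 and mt-Nd4 0.0065. Scaling to nuclear genes gave mt-Rnr2 0.0054, mt-Nd2 0.013 and mt-Co2 0.048. Quantile normalization gave mt-Nd2 0.075, mt-Co1 -0.055, mt-Co2 0.074 and Ndufa4 0.017. Array weights gave mt-Rnr1 -0.063, mt-Nd2 0.15, mt-Tn -0.18, mt-Ts1 -0.16, mt-Co2 0.12, mt-Nd4l 0.044, Tfam -0.051 and Slirp -0.068. The covariate of reads on genes gave mt-Rnr1 -0.0043, mt-Tl1 -0.31, mt-Co1 -0.21, mt-Nd5 -0.29, mt-Nd6 -0.19, mt-Cytb -0.30, Mterf2 -0.0077, Sdhb 0.029, Uqcrfs1 0.0021, Polrmt 0.019, Tfam -0.0010 and Lrpprc -0.097. The full set of 12 libraries gave mt-Tv 0.021, mt-Co1 -0.025, mt-Nd5 -0.0045 and Lrpprc -0.0041. The replicate block gave mt-Tv 0.22 and Tfam -0.012. A pseudocount of 0.1 gave mt-Tv 0.024. voom gave mt-Tv 0.040. Leaving out 1 library gave ranges across 0 for Lrpprc (-0.043 to 0.061), Slirp (-0.029 to 0.097), Tfam (-0.024 to 0.067), mt-Co1 (-0.052 to 0.13), mt-Co2 (-0.11 to 0.10), mt-Cytb (-0.083 to 0.19), mt-Nd2 (-0.12 to 0.063), mt-Nd4 (-0.20 to 0.048), mt-Nd4l (-0.21 to 0.070), mt-Nd5 (-0.069 to 0.18), mt-Rnr1 (-0.042 to 0.097), mt-Tl1 (-0.087 to 0.42), mt-Tn (-0.025 to 0.51) and mt-Tv (-0.37 to 0.40).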
